A study of Mus musculus with 3 samples.

Results

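Lipid uptake and activation was followed through 10 genes across 3 sorted populations of mouse small-intestinal epithelium. They were the lipase gene Lpl, the receptor genes Scarb1 and Cd36, the fatty acid transport protein genes Slc27a1, Slc27a2 and Slc27a4, and the acyl-CoA synthetase genes Acsl1, Acsl3, Acsl4 and Acsl5. These 10, of 24189 genes with a matched transcript of 200 bases or more, were taken by name for their place in the pathway, with earlier results of these data known. Each library was 1 pool of RNA from sorted cells of C57BL/6 mice, whose age and number are not given in the sources used here. GIP-GFP held GFP-positive cells that make the incretin hormone GIP, and the reporter construct behind the GFP is not described in those sources. Ngn3-TOMATO held CD45-negative, tomato-positive cells of male mice that carried Neurogenin3 (Ngn3)-Cre and the ROSA26-LoxP-STOP-LoxP-tomato indicator. The Cre marks for good every cell whose progenitor once expressed Ngn3, so the label follows a lineage and not a present hormone. Ngn3-negative held the epithelial cells without tomato, described as enterocytes, goblet cells and Paneth cells. No CD45 gate is stated for the GIP-GFP sort, and no group received a treatment. GIP-GFP and Ngn3-TOMATO are called the reporter-positive libraries. The question behind the design was how GIP cells differ from the whole enteroendocrine lineage and from the other epithelium.

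The enterocyte takes fatty acids and monoglycerides from digested fat, activates the fatty acids to acyl-CoA and packs them as triglyceride into chylomicrons. Lipoprotein lipase, the product of Lpl, works at the other end of that route: it is bound to the capillary wall of fat and muscle and frees fatty acids from circulating chylomicrons. CD36 and the SLC27 proteins favour entry of fatty acids into the cell, SR-BI binds lipoproteins and passes cholesterol and other lipids across the membrane, and the ACSL enzymes trap long-chain fatty acids as acyl-CoA. Enteroendocrine cells line the same lumen, and GIP is released after a meal that contains fat.

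Levels are given as scaled FPKM, the sum of the deposited transcript values of a gene on a scale common to the libraries, which then held 1000000 units on average. Intervals in parentheses after a level or a log2 ratio are 95% counting intervals from the deposited limits. They cover read counting and assignment within a library only, because each group had 1 library and no difference here has a replicate check or a p-value. The libraries held 592.1 to 1380 Mb of read bases, with GIP-GFP the shallowest, and 11976 to 13138 genes reached 1 scaled FPKM. The hormone gene Gip alone made up 23.1% of the GIP-GFP total, 2.63% of Ngn3-TOMATO and 0.0808% of Ngn3-negative, which matched the labels. The 6 enteroendocrine markers summed to 273200, 83560 and 1493 scaled FPKM in that order, and the 8 enterocyte markers to 7581, 6471 and 32510. The 6 goblet markers summed to 4845 in GIP-GFP cells, 163800 in Ngn3-TOMATO cells and 29230 in Ngn3-negative cells, and the 4 Paneth markers to 2135, 25540 and 4523. The Ngn3-TOMATO pool was thus richest in goblet and Paneth transcripts as well as holding endocrine ones. In pooled cells of this kind, fewer cells of a type and less RNA per cell cannot be told apart.

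The genes divided by library. Scarb1, Lpl, Acsl4 and Slc27a1 had their highest level in GIP-GFP, 5 genes (Cd36, Slc27a2, Slc27a4, Acsl3 and Acsl5) had it in Ngn3-negative, and Acsl1 had it in Ngn3-TOMATO, although its order against Ngn3-negative reversed with libraries scaled to equal totals. Of the 20 pairs of neighbouring levels, 3 had overlapping counting intervals: Slc27a1 in GIP-GFP and Ngn3-TOMATO, and Acsl1 and Acsl3 in Ngn3-TOMATO and Ngn3-negative. All 10 genes passed the filter of 1 scaled FPKM in either library in every comparison. Lpl, at 0.0812 in Ngn3-negative, passed the comparisons with that library only through its level in the other library.

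**Figure D1:**
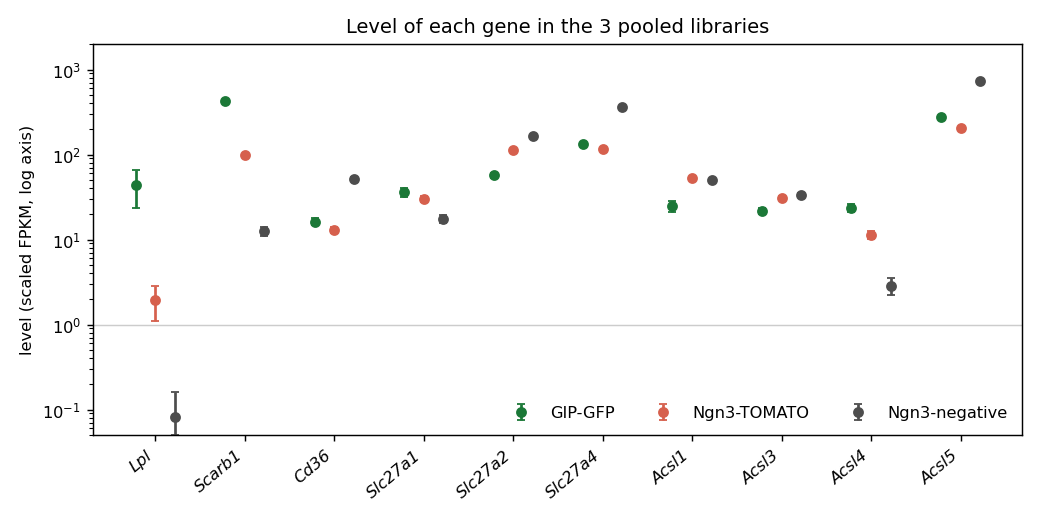
Level of the 10 genes (scaled FPKM, log axis) in GIP-GFP (green), Ngn3-TOMATO (red) and Ngn3-negative (grey), 1 pooled library each, with 95% counting intervals; the line marks 1 scaled FPKM and the lower limit of Lpl in Ngn3-negative, which is 0, is cut at the axis. Lpl and Scarb1 step down from GIP-GFP to Ngn3-negative, whereas Cd36, Slc27a4 and Acsl5 are highest in Ngn3-negative.

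Sequence is shown for 3 of the 5 genes with more than 1 transcript above 0, namely Scarb1, Slc27a1 and Acsl1. Their transcripts differed in coding end or in start. Lpl and Acsl4 were split as well, in part onto shorter models with another start, and are not shown. The Scarb1 transcripts uc008zrd.2 (2521 bases) and uc008zre.2 (2392 bases), both at chr5:125277087-125341094 on the minus strand of mm10, differ by 1 exon of 129 bases. This is exon 12 of 13, at chr5:125281105-125281233. Its 42 codons give the tail of the form known as SR-BI, which binds the adaptor PDZK1, and without it translation runs on into the last exon for 39 codons, which give the tail of SR-BII. Both coding ends were read from the genome sequence with GENCODE M21, and capitals mark the stop codon.
Scarb1 exon 12, SR-BI end: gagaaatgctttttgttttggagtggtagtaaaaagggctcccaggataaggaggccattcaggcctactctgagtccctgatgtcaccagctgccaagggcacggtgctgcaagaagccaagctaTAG
Scarb1 last exon, SR-BII end: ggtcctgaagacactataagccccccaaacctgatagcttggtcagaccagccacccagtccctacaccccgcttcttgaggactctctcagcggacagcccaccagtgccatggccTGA

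Slc27a1 and Acsl1 each had reads assigned to transcripts from separate first exons, so the windows from 250 bases before to 50 after the nearest RefSeq start (GRCm38.p6) are shown for both starts. Capitals mark the GC box GGGCGG on either strand, which 35.7% of 32851 RefSeq promoter windows of this length held, overlapping copies being counted. The upstream Slc27a1 window, chr8:71568621-71568920 on the plus strand, lies beside the start of uc009mdx.1, and the downstream window, chr8:71570344-71570643, beside that of uc009mdy.1. The upstream window held 65.7% GC and no GC box, and the downstream window 56.3% GC and 3 GC boxes. For Acsl1 the upstream window, chr8:46470787-46471086 (plus strand), serves uc009lqe.1, and the downstream window, chr8:46490716-46491015, precedes uc009lqf.1 by 168 bases from start to start. The upstream window held 74.0% GC, more than 95.2% of promoters, with 7 GC boxes, whereas the downstream window had more GC than 39.3% of promoters and no GC box. A match of these letters describes the window and nothing about a factor.
Slc27a1 upstream: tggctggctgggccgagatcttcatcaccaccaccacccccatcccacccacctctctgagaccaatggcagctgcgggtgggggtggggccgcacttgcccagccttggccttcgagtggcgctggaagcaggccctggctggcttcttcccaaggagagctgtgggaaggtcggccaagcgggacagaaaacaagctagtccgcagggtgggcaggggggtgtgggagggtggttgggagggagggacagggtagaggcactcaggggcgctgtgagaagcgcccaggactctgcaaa
Slc27a1 downstream: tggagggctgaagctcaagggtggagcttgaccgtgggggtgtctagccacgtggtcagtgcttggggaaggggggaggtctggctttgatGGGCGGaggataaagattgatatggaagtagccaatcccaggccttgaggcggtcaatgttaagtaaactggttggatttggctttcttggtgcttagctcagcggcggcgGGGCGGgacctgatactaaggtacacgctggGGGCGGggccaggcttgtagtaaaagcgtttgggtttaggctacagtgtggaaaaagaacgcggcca
Acsl1 upstream: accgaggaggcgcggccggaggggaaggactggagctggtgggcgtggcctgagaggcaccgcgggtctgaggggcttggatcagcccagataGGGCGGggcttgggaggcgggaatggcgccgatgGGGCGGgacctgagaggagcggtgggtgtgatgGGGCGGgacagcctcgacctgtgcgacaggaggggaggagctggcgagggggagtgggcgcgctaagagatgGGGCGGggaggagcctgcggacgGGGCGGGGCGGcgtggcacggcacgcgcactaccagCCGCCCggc
Acsl1 downstream: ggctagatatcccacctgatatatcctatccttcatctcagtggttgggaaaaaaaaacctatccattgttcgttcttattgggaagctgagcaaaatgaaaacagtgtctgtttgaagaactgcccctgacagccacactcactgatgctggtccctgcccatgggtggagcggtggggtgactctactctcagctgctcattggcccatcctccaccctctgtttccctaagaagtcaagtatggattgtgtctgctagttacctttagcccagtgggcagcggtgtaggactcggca

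Lpl had the widest range of the 10 genes and was high in GIP-GFP. Its level was 44.4 scaled FPKM (23.3 to 65.4) in GIP-GFP cells, 1.97 (1.09 to 2.84) in Ngn3-TOMATO cells and 0.0812 (0 to 0.162) in Ngn3-negative cells. The intervals did not overlap, and the Ngn3-negative value rested on 165 read bases. The log2 ratio, taken here and below after adding 1 to each level, was 5.39 (4.71 to 6.07) for GIP-GFP against Ngn3-negative, and 0.824% of the genes compared had a higher one. Against Ngn3-TOMATO it was 3.93 (3.14 to 4.73), exceeded by 0.218% of genes. For Ngn3-TOMATO against Ngn3-negative it was 1.46 (1.02 to 1.90).

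The Lpl level had an uncertain component. The full transcript uc009lwq.1 (chr8:68880555-68906932, plus strand) stood at 23.3, 1.14 and 0.0812 scaled FPKM in the GIP-GFP, Ngn3-TOMATO and Ngn3-negative pools. The rest lay on uc029wtn.1, a model of 1389 bases inside the last exon, at 21.0, 0.832 and 0. Its deposited status was LOWDATA in every library, a warning flag that 406 transcripts carried in each. In GIP-GFP 8087 read bases were assigned to uc029wtn.1, and its lower limit there was 0. Without this model the log2 ratio of Lpl was 4.49 for GIP-GFP against Ngn3-negative and 3.51 for GIP-GFP against Ngn3-TOMATO. For Ngn3-TOMATO against Ngn3-negative it was 0.98, under the 2-fold line.

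Cell types known to make LPL, and also T cells and endothelium, were looked for by their markers. The 5 fibroblast and muscle markers summed to 0.617, 1.405 and 1.74 scaled FPKM in the GIP-GFP, Ngn3-TOMATO and Ngn3-negative pools. Of the adipocyte markers, Adipoq, Plin1 and Lep were listed at 0 in all 3 libraries, and the summed level of the 4 came from Cidec alone (9.78, 8.06 and 61.5 scaled FPKM in the GIP-GFP, Ngn3-TOMATO and Ngn3-negative pools), a droplet gene that enterocytes express too. The 5 myeloid markers summed to 15.5, 12.1 and 14.3 in the same order. The macrophage marker Adgre1 was listed at 0 in GIP-GFP and Ngn3-TOMATO, and Lyz2, a lysozyme of myeloid cells, stood at 10.5, 4.43 and 2.06. Itgam (1.95, 3.04 and 6.86) and Cd68 (2.89, 4.53 and 5.16) had the opposite order, and Csf1r was low throughout (0.197, 0.0888 and 0.0772). The 4 T cell markers summed to 32.7 in GIP-GFP, the sort with no stated CD45 gate, against 7.88 and 17.3. The 5 endothelial markers summed to 2.12, 10.3 and 0.787, with Cdh5, Kdr and Gpihbp1 at 0 in GIP-GFP and Ngn3-TOMATO. Pecam1, at 1.96, 9.65 and 0.341, held most of that sum in GIP-GFP and Ngn3-TOMATO. The part of leukocyte RNA in the Lpl level was not tested.

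By Euclidean distance between log2 patterns centred over the 3 libraries, the gene nearest to Lpl among 9455 with a mean of 10 scaled FPKM or more was Fabp4, which encodes a fatty acid binding protein of adipocytes and macrophages. Fabp4 stood at 44.4 scaled FPKM in GIP-GFP cells, 2.24 in Ngn3-TOMATO cells and 0.168 in Ngn3-negative cells, at a distance of 0.096. Next came Pcsk2os2 (37.9, 2.58 and 0.053; distance 0.351), an antisense gene of the hormone convertase gene Pcsk2 whose reads cannot be told from that gene where strand is not stated. Ecel1 followed (61.0, 4.73 and 0.555; distance 0.381) and encodes a membrane metallopeptidase. With 3 libraries such likeness rests on 3 points.

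Scarb1 was the most abundant of the 10 genes in GIP-GFP. Its level was 422 scaled FPKM (410 to 435) in GIP-GFP cells, 97.9 (94.0 to 102) in Ngn3-TOMATO cells and 12.6 (11.0 to 14.2) in Ngn3-negative cells. It ranked 217th among genes in GIP-GFP cells, 1618th in Ngn3-TOMATO cells and 8096th in Ngn3-negative cells. The log2 ratio was 4.96 (4.78 to 5.14) for GIP-GFP against Ngn3-negative, exceeded by 1.28% of genes, and 2.86 (2.68 to 3.05) for Ngn3-TOMATO against Ngn3-negative, exceeded by 4.43%. For GIP-GFP against Ngn3-TOMATO it was 2.10 (2.03 to 2.17), exceeded by 1.82%. Scarb1 thus stood more than 4-fold higher at each step towards the GIP cells.

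The make-up of the Scarb1 mRNA differed too. The SR-BI transcript, which holds the exon printed above, stood at 318 scaled FPKM (308 to 328) in GIP-GFP cells, 68.3 (65.2 to 71.4) in Ngn3-TOMATO cells and 6.23 (5.10 to 7.37) in Ngn3-negative cells. The SR-BII transcript, which lacks it, stood at 104 (97.0 to 112), 29.6 (27.2 to 32.1) and 6.36 (5.18 to 7.55). There were thus 3.05 SR-BI transcripts per SR-BII transcript in GIP-GFP cells (2.82 to 3.30), 2.30 in Ngn3-TOMATO cells (2.10 to 2.53) and 0.980 in Ngn3-negative cells (0.755 to 1.27). These intervals, which take the errors of both forms as independent, did not overlap. Pdzk1, the gene of the adaptor, was picked for its tie to this tail and outside the naming rule. It had the opposite order, 35.9 scaled FPKM in GIP-GFP cells, 49.7 in Ngn3-TOMATO cells and 177 in Ngn3-negative cells, with log2 ratios to Ngn3-negative of -2.27 and -1.81. The enterocyte markers had median log2 ratios of -2.19 and -2.51 in the same comparisons. The part of enterocyte RNA in the Pdzk1 level was not tested.

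**Figure D2:**
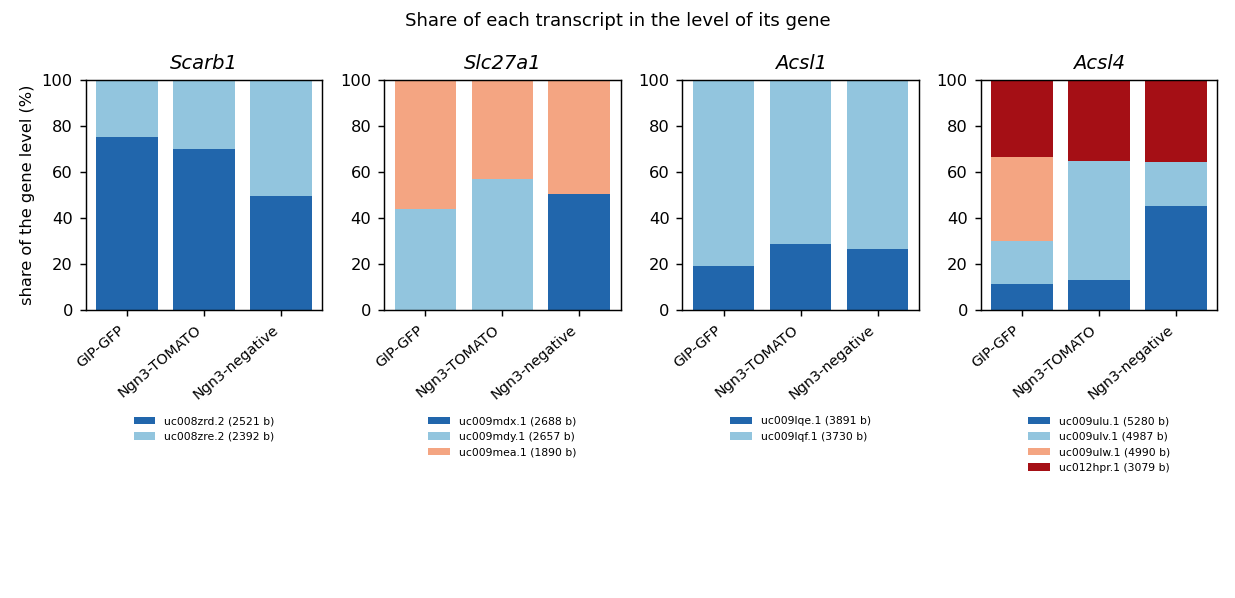
Share of each transcript (%) in the level of Scarb1, Slc27a1, Acsl1 and Acsl4 in the 3 libraries; transcripts at 0 in every library are left out and lengths are in bases (b). The SR-BI transcript uc008zrd.2 makes up 75.3%, 69.7% and 49.5% of Scarb1 in the GIP-GFP, Ngn3-TOMATO and Ngn3-negative pools, and the Slc27a1 transcript uc009mdx.1 appears in Ngn3-negative alone.

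Cd36, which encodes the other receptor, ran the other way. Its level was 16.3 scaled FPKM (14.7 to 17.97) in GIP-GFP cells, 13.0 (12.0 to 14.0) in Ngn3-TOMATO cells and 51.9 (49.6 to 54.3) in Ngn3-negative cells. The log2 ratio to Ngn3-negative was -1.61 (-1.76 to -1.46) in GIP-GFP and -1.92 (-2.04 to -1.80) in Ngn3-TOMATO, and between these it was 0.31 (0.14 to 0.48). Of the summed level of both receptors, Scarb1 made up 96.3% in GIP-GFP cells, 88.3% in Ngn3-TOMATO cells and 19.5% in Ngn3-negative cells, so Cd36 was the more abundant receptor mRNA per length in Ngn3-negative alone. All Cd36 reads were assigned to uc008wnp.2, whose 5′ end is at position 17849792 of chromosome 5, and the models that begin at 17835896 were listed at 0.

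The transport protein genes were led by Slc27a4, whose product FATP4 is the main SLC27 protein of the enterocyte. Slc27a4 (uc008jaf.1, chr2:29802680-29817522, plus strand) stood at 133 scaled FPKM (128 to 138) in GIP-GFP cells, 115 (112 to 118) in Ngn3-TOMATO cells and 365 (359 to 370.0) in Ngn3-negative cells. Both reporter-positive libraries were lower than Ngn3-negative, with log2 ratios of -1.45 (-1.50 to -1.39) and -1.65 (-1.69 to -1.61), and between them the ratio was 0.21 (0.15 to 0.27).

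Slc27a2 encodes FATP2, a transporter that also activates very-long-chain fatty acids. Slc27a2 (uc008mdq.1, chr2:126553024-126588243, plus strand) stood at 57.3 scaled FPKM (53.3 to 61.3) in GIP-GFP cells, 114 (110.0 to 117) in Ngn3-TOMATO cells and 167 (162 to 172) in Ngn3-negative cells. GIP-GFP was past 2-fold lower than Ngn3-negative, with a log2 ratio of -1.53 (-1.64 to -1.42). Against Ngn3-TOMATO the log2 ratio was -0.97 (-1.08 to -0.87), and Ngn3-TOMATO against Ngn3-negative gave -0.55 (-0.62 to -0.49).

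Slc27a1, the gene of FATP1, which is known from muscle and fat as an insulin-responsive transporter, was the lowest of the 3. It stood at 36.1 scaled FPKM (31.9 to 40.2) in GIP-GFP cells, 29.9 (27.6 to 32.2) in Ngn3-TOMATO cells and 17.5 (15.5 to 19.4) in Ngn3-negative cells. The log2 ratio to Ngn3-negative was 1.00 (0.78 to 1.23) in GIP-GFP, a 2.01-fold difference that lay on the 2-fold line, and 0.74 (0.55 to 0.93) in Ngn3-TOMATO. With libraries scaled to equal totals the GIP-GFP ratio was 0.80 and under the line. Slc27a1 made up 15.9% of the summed level of the 3 genes in GIP-GFP cells, 11.6% in Ngn3-TOMATO cells and 3.18% in Ngn3-negative cells.

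The Slc27a1 start site also differed. The upstream transcript uc009mdx.1 stood at 8.82 scaled FPKM (7.59 to 10.1) in Ngn3-negative and at a listed 0 in GIP-GFP and in Ngn3-TOMATO. The downstream transcript uc009mdy.1 stood at 15.8 (13.4 to 18.3) in GIP-GFP and 17.0 (15.5 to 18.5) in Ngn3-TOMATO and was listed at 0 in Ngn3-negative. A shorter model, uc009mea.1, which begins further into the gene, stood at 20.2, 12.9 and 8.64 in the GIP-GFP, Ngn3-TOMATO and Ngn3-negative pools. The model uc009mea.1 begins at neither printed window and held 56.1%, 43.1% and 49.5% of the gene level in that order. Between uc009mdx.1 and uc009mdy.1 alone, the assigned start went with the library. The GC-box-free window printed above went with Ngn3-negative, and the window with 3 GC boxes with the reporter-positive libraries. The 2 long models differ in 97 and 66 bases of first exon, on which this assignment rests, and a listed 0 is an estimate of the authors' software and not a count.

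The synthetase genes were led by Acsl5, whose product is abundant in enterocytes and serves triglyceride synthesis. Acsl5 (uc008hxp.1, chr19:55253369-55296628, plus strand) stood at 278 scaled FPKM (271 to 285) in GIP-GFP cells, 207 (203 to 211) in Ngn3-TOMATO cells and 740.5 (732 to 749) in Ngn3-negative cells, where it ranked 152nd among all genes. The log2 ratio to Ngn3-negative was -1.41 (-1.45 to -1.37) in GIP-GFP and -1.83 (-1.87 to -1.80) in Ngn3-TOMATO. Acsl5 nevertheless made up 79.9%, 68.6% and 89.6% of the summed Acsl level in the GIP-GFP, Ngn3-TOMATO and Ngn3-negative pools, and so led the synthetases in each library.

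Acsl4 encodes the synthetase that prefers arachidonic acid and other polyunsaturated fatty acids. Its level was 23.5 scaled FPKM (21.0 to 26.0) in GIP-GFP cells, 11.4 (10.3 to 12.5) in Ngn3-TOMATO cells and 2.86 (2.22 to 3.51) in Ngn3-negative cells. It was the one synthetase gene of the 4 higher in the reporter-positive libraries past 2-fold, with log2 ratios to Ngn3-negative of 2.66 (2.38 to 2.94) in GIP-GFP and 1.68 (1.41 to 1.96) in Ngn3-TOMATO. Between GIP-GFP and Ngn3-TOMATO it was 0.98 (0.79 to 1.18), and 1.33 with libraries scaled to equal totals without Gip. Acsl4 made up 6.76% of the summed Acsl level in GIP-GFP cells, 3.78% in Ngn3-TOMATO cells and 0.346% in Ngn3-negative cells. Its reads were spread over 4 transcripts, of which uc009ulw.1 (8.65 scaled FPKM in GIP-GFP and listed at 0 in the others) differs in length from uc009ulv.1 by 3 bases, so that split is uncertain.

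Acsl1 is the main synthetase of fat, heart and liver. It stood at 24.7 scaled FPKM (21.0 to 28.5) in GIP-GFP cells, 52.4 (50.1 to 54.7) in Ngn3-TOMATO cells and 49.6 (47.0 to 52.2) in Ngn3-negative cells. GIP-GFP was the low library, with a log2 ratio of -1.05 (-1.27 to -0.84) to Ngn3-TOMATO and -0.98 (-1.20 to -0.76) to Ngn3-negative. The first passed the 2-fold line here and was -0.69 with libraries scaled to equal totals without Gip. The downstream transcript uc009lqf.1 exceeded the upstream uc009lqe.1 4.195-fold in GIP-GFP cells (2.57 to 6.84), 2.50-fold in Ngn3-TOMATO cells (2.24 to 2.78) and 2.78-fold in Ngn3-negative cells (2.44 to 3.16). The downstream start was thus assigned most of Acsl1 in each library, and the intervals of the Ngn3-TOMATO and Ngn3-negative ratios overlapped that of GIP-GFP. The GC-poorer window printed above ends before that start. The upstream and downstream models differ in 189 and 28 bases of first exon, on which this assignment rests.

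Acsl3, whose product sits on the endoplasmic reticulum and on growing lipid droplets, varied least of the 10. Its level was 21.8 scaled FPKM (20.01 to 23.6) in GIP-GFP cells, 30.9 (29.4 to 32.3) in Ngn3-TOMATO cells and 33.8 (32.1 to 35.6) in Ngn3-negative cells. Its log2 ratios were -0.61 (-0.74 to -0.47) for GIP-GFP against Ngn3-negative, -0.48 (-0.61 to -0.35) for GIP-GFP against Ngn3-TOMATO and -0.13 (-0.22 to -0.03) for Ngn3-TOMATO against Ngn3-negative. All 3 lay within 2-fold. The model uc007bqn.2, which shares the 5′ end of Acsl3 and was assigned to Utp14b, stood at 8.80, 18.6 and 6.79 scaled FPKM in the GIP-GFP, Ngn3-TOMATO and Ngn3-negative pools and is not in these sums.

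Counted together, the 10 genes moved in both directions. In Ngn3-TOMATO against Ngn3-negative, 3 were at least 2-fold higher (Lpl, Scarb1, Acsl4), where 19.2% of 13443 genes were, and 3 were at least 2-fold lower (Cd36, Slc27a4, Acsl5), where 9.92% were. The median log2 ratio was -0.02 over the 10 genes and 0.03 over all. In GIP-GFP against Ngn3-negative, 4 were higher (Lpl, Scarb1, Acsl4, Slc27a1), where 21.0% of 13466 genes were, and 4 were lower (Cd36, Slc27a2, Slc27a4, Acsl5), where 13.8% were. The median was -0.79 against 0.07 over all genes. In GIP-GFP against Ngn3-TOMATO, 2 were higher (Lpl, Scarb1), where 8.08% of 13738 genes were, 1 was lower (Acsl1), where 8.76% were, and 7 lay within 2-fold. The median was 0.29 against 0.08. The comparisons share libraries and are not independent of each other. Each count exceeded what the background share of 10 genes would give by fewer than 3 genes.

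**Figure D3:**
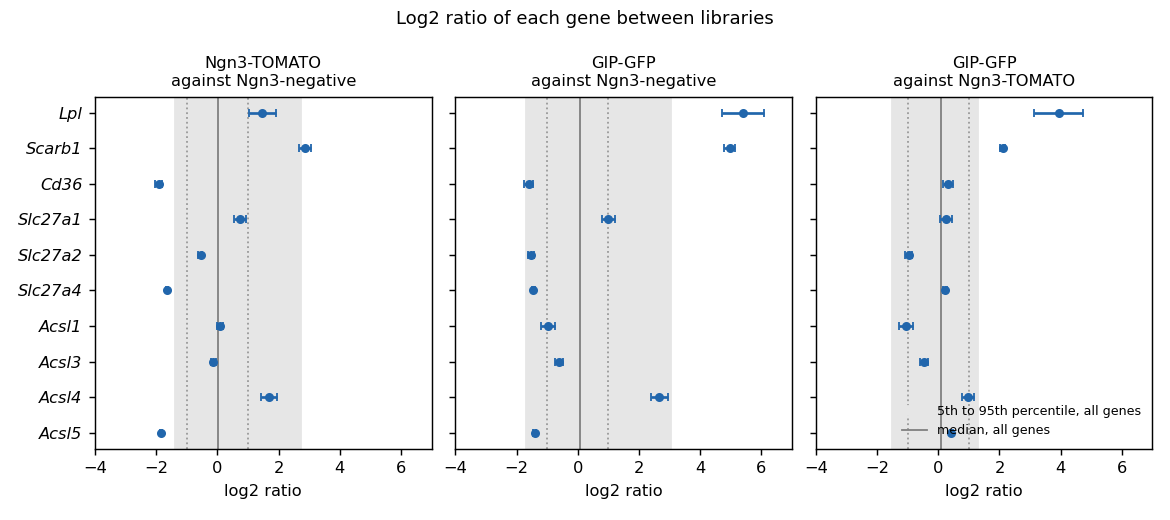
Log2 ratio of each gene (x axis; after adding 1 to each level) in the 3 comparisons, with 95% counting intervals; the grey band spans the 5th to 95th percentile of all genes compared, the solid line is their median and dotted lines mark 2-fold. Lpl and Scarb1 lie above the band in both GIP-GFP comparisons, Scarb1 also in Ngn3-TOMATO against Ngn3-negative, and Cd36, Slc27a4 and Acsl5 lie below it in Ngn3-TOMATO against Ngn3-negative.

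The 3 genes past 2-fold lower in both reporter-positive libraries were so together with the enterocyte markers. Cd36, Slc27a4 and Acsl5 stood at 31.4%, 36.5% and 37.5% of their Ngn3-negative level in GIP-GFP and at 25.01%, 31.6% and 28.0% in Ngn3-TOMATO. The 8 enterocyte markers stood at 15.6% to 49.0% in GIP-GFP (median 22.3%) and at 12.3% to 56.7% in Ngn3-TOMATO (median 17.7%). The percentages of the 3 genes thus fell inside the range of the markers but above their median in both libraries. The top of the range was Sis, whose log2 ratios had wide counting intervals (-3.07 to 1.01 and -2.86 to 1.22). Vil1 followed at 39.0% and 45.8%, and then Anpep at 29.1% and 27.25%. The log2 ratios of Anpep had wide counting intervals too (-3.82 to 0.26 and -3.91 to 0.16). By these values the 3 genes stood above every marker but Sis and Vil1 in GIP-GFP, although the intervals of Sis and Anpep are too wide to fix their places in that order. Slc27a2 stood at 34.3% in GIP-GFP, inside the marker range, and at 68.0% in Ngn3-TOMATO, above it. Acsl3, at 64.5% and 91.3%, lay above it in both. The part of enterocyte RNA in these levels was not tested. In GIP-GFP against Ngn3-TOMATO, where Acsl1 was past 2-fold lower, all 6 goblet markers were too, with a median log2 ratio of -4.56. So were all 4 Paneth markers (median -3.68) and all 4 tuft cell markers (median -2.33). In Ngn3-TOMATO against Ngn3-negative the goblet and Paneth markers were all higher, with medians of 2.37 and 2.45. The tuft cell markers lay within 2-fold there (median 0.89), whereas Acsl1 was at 0.08 and Slc27a2 at -0.55. The part of goblet, Paneth and tuft cell RNA was not tested.

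The wider pathway was read from lists of named genes. Over all genes compared, 19.2% were at least 2-fold higher and 9.92% lower in Ngn3-TOMATO than in Ngn3-negative. The shares were 21.0% and 13.8% in GIP-GFP against Ngn3-negative, and 8.08% and 8.76% in GIP-GFP against Ngn3-TOMATO. These shares are the background for each list count below. Among the other transport protein and acyl-CoA synthetase genes, 3 of 11 compared were at least 2-fold higher and 3 lower in Ngn3-TOMATO than in Ngn3-negative, and 3 higher and 4 lower in GIP-GFP. Their median log2 ratios were -0.53 and -0.25, against 0.03 and 0.07 over all genes in these comparisons. Acsl6, which encodes a synthetase known from brain, stood at 23.7 scaled FPKM in GIP-GFP cells, 85.5 in Ngn3-TOMATO cells and 7.04 in Ngn3-negative cells, with log2 ratios to Ngn3-negative of 1.62 and 3.43. Acss3, a mitochondrial short-chain synthetase gene, stood at 7.05, 6.77 and 0.828, and the acetoacetyl-CoA synthetase gene Aacs had the highest mean level of the list over the 3 libraries, at 36.5, 61.5 and 30.7.

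Among the partners of lipoprotein lipase and other lipases, 3 of 18 genes were higher and 7 lower in Ngn3-TOMATO than in Ngn3-negative, 2 of 16 higher and 7 lower in GIP-GFP than in Ngn3-negative, and 1 of 18 higher and 4 lower in GIP-GFP than in Ngn3-TOMATO. The medians were -0.20, -0.72 and -0.17, beside 0.03, 0.07 and 0.08 over all genes. Of all genes, 19.2%, 21.0% and 8.08% were higher and 9.92%, 13.8% and 8.76% lower. Gpihbp1, which holds the lipase on capillaries, was listed at 0 in every library. Mgll, the monoglyceride lipase gene, was highest in Ngn3-TOMATO (13.1 scaled FPKM in GIP-GFP cells, 111 in Ngn3-TOMATO cells, 4.30 in Ngn3-negative cells), and so was Apoa5, an activator of lipoprotein lipase (0.0727, 14.3 and 0.146). The lipase inhibitor gene Apoc3 (372, 419 and 2102) and the pancreatic lipase gene Pnlip (1.09, 1.44 and 25.1) were highest in Ngn3-negative.

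Among lipoprotein and sterol receptors and transporters, 3 of 17 genes were higher and 6 lower in Ngn3-TOMATO, and 5 higher and 7 lower in GIP-GFP, each against Ngn3-negative, with medians of -0.18 and -0.35. Vldlr, which encodes a receptor that works with lipoprotein lipase, had the order of Scarb1: 36.1 scaled FPKM in GIP-GFP cells, 15.8 in Ngn3-TOMATO cells and 1.65 in Ngn3-negative cells, with log2 ratios to Ngn3-negative of 3.81 and 2.67. The sterol exporter gene Abcg1 was higher in both reporter-positive libraries (6.98, 10.1 and 0.593). The intestinal cholesterol importer gene Npc1l1 was lower in both (128, 183 and 460.3), with log2 ratios of -1.84 and -1.33. Abca1, another sterol exporter gene, was higher in GIP-GFP (16.7, 6.39 and 7.42).

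Intracellular carriers included the most abundant of the listed genes. Fabp5, the epidermal fatty acid binding protein gene, stood at 1924 scaled FPKM in GIP-GFP cells, 155 in Ngn3-TOMATO cells and 5.53 in Ngn3-negative cells, with log2 ratios of 8.20 and 4.57 to Ngn3-negative. Fabp2, the enterocyte binding protein gene and one of the enterocyte markers, stood at 2872, 2182 and 11160. Of the 17 binding protein and acyl-CoA carrier genes, 3 were higher and 5 lower in Ngn3-TOMATO than in Ngn3-negative, and of 16 compared 2 were higher and 6 lower in GIP-GFP, with medians of -0.69 and -0.58.

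The steps that spend acyl-CoA were, apart from the oxidation gene Cpt1c, lower than in Ngn3-negative or within 2-fold of it. In glycerolipid synthesis and droplet formation no gene of 21 was at least 2-fold higher, whereas 11 were lower in Ngn3-TOMATO and 10 in GIP-GFP than in Ngn3-negative, with medians of -1.09 and -0.69. The enterocyte markers were lower in the same comparisons, 7 of 8 with a median of -2.51 and 8 of 8 with a median of -2.19, and their part in these lists was not tested. Examples were Dgat1, which closes triglyceride synthesis (376, 319 and 1377 scaled FPKM in the GIP-GFP, Ngn3-TOMATO and Ngn3-negative pools), and Cidec (log2 ratios to Ngn3-negative of -2.54 and -2.79). Agpat2, an acyltransferase gene, had the largest ratio of the list between GIP-GFP and Ngn3-TOMATO, -0.95 (57.5, 112 and 240.3 scaled FPKM). In fatty acid oxidation 13 of 27 genes were lower and 1 higher in Ngn3-TOMATO, and 6 lower and 1 higher in GIP-GFP, with medians of -0.83 and -0.58. The higher one was Cpt1c, a brain form of carnitine palmitoyltransferase (11.1, 6.53 and 0.232), and the most abundant was Hadh (428, 336 and 922). Between GIP-GFP and Ngn3-TOMATO all 21 glycerolipid genes lay within 2-fold, and of the oxidation genes Acadl, a long-chain dehydrogenase gene, was higher in GIP-GFP (314 against 120.1).

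Fatty acid synthesis and desaturation lay near the background: 4 of 14 genes were higher and none lower in Ngn3-TOMATO than in Ngn3-negative, and 3 were higher and 2 lower in GIP-GFP, with medians of 0.26 and 0.10 beside 0.03 and 0.07 over all genes. Elovl2, an elongase of polyunsaturated chains, stood at 4.51 scaled FPKM in GIP-GFP cells, 3.71 in Ngn3-TOMATO cells and 0.192 in Ngn3-negative cells, and the desaturase gene Fads2, highest of the list by its mean over the libraries, at 230.3, 326 and 544. Fads3, of the same family, stood at 5.37, 13.3 and 5.04, with a log2 ratio of -1.17 for GIP-GFP against Ngn3-TOMATO. Of the 16 lipid-responsive regulators, 7 were lower in each reporter-positive library than in Ngn3-negative, none was higher in Ngn3-TOMATO and 1 was higher in GIP-GFP, with medians of -0.67 and -0.71. Hnf4a, a nuclear receptor gene and the highest of the list by its mean over the libraries, stood at 267, 364 and 482. Creb3l3, which drives intestinal lipid genes, was lower in both (91.5, 65.6 and 435), as was the coactivator gene Ppargc1a (5.03, 7.81 and 29.0). Mlxipl, the gene of the carbohydrate-responsive factor ChREBP, was highest in GIP-GFP (591, 193 and 237), with a log2 ratio of 1.61 to Ngn3-TOMATO.

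**Figure D4:**
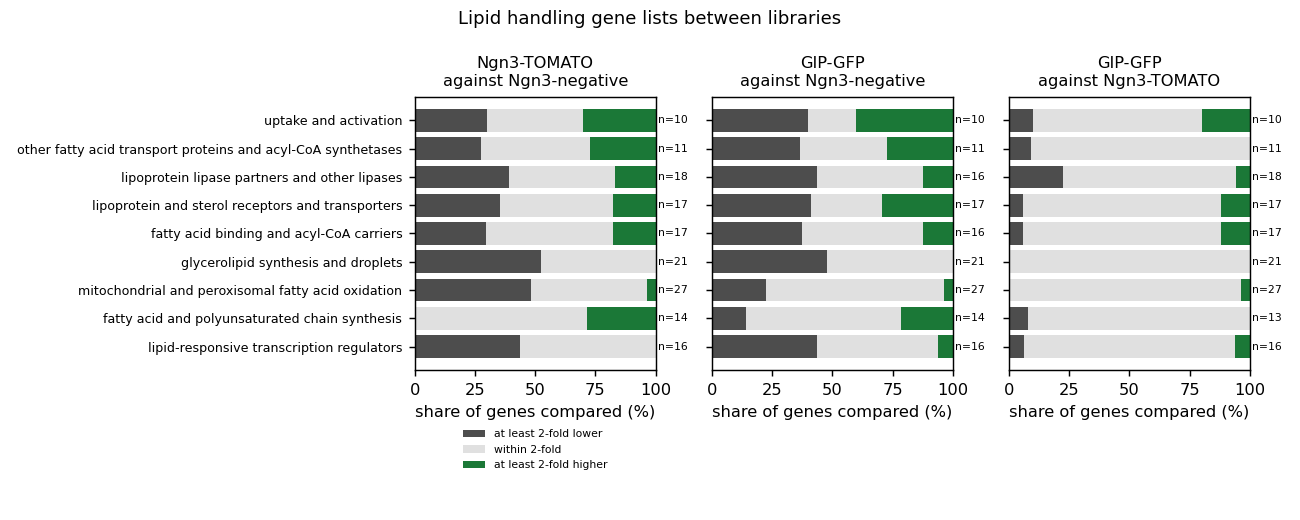
Share of the genes compared (%) in each lipid list that were at least 2-fold lower (dark grey), within 2-fold (light grey) or at least 2-fold higher (green) in the 3 comparisons, with the number of genes compared (n). In glycerolipid synthesis 11 and 10 of 21 genes are lower in Ngn3-TOMATO and GIP-GFP than in Ngn3-negative and none is higher, whereas the 10 uptake and activation genes fall on both sides. Over all genes compared, 9.92% and 13.8% are lower in these comparisons.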

How the data were processed

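Polyadenylated RNA of 3 pooled samples was sequenced without amplification of the RNA. FastQC, TopHat 1.5.0 and Cufflinks were used with genome build mm10, per the submitters' processing notes, which give no version for Cufflinks here. The authors deposited, per the file headers, 59120 UCSC transcripts with their coverage, their FPKM, its lower and upper limits and a status. The deposited FPKM sum to 10160000000 in GIP-GFP cells, 10740000000 in Ngn3-TOMATO cells and 10370000000 in Ngn3-negative cells, so the library term is not the one the name states, and FPKM are treated as relative values.

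No gene names are in the files, so transcripts were matched by ends, length and overlap to GENCODE M21, and 53006 received a symbol. FPKM of transcripts of 200 bases or more were summed per symbol and divided by 8191, and log2 ratios were taken after adding 1, for genes at 1 or more in either library. The planned pseudocount and filter of 1 were kept on this scaled unit. Called means past 2-fold. Intervals treat the deposited limits as 2 standard errors. The ratio script was checked on simulated data. Read depth is the sum of the deposited coverage times length. Python 3.11.15, numpy 2.4.6, pandas 2.3.3 and matplotlib 3.10.9 were used.

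The 10 genes and the lists were chosen with earlier results of these data known. Named from each list were the gene of highest mean level over the libraries and that of largest absolute log2 ratio in each comparison, and, for the member of widest range, its 3 nearest genes, and from the marker lists the defining markers. Other scalings, pseudocounts, filters, transcript choices and matches were tried.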

Additional observations from a re-analysis of the deposited data

How the results depend on the processing

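Of the 30 log2 ratios of the 10 genes, recomputed under 10 other settings (300 values), 14 values of 6 ratios crossed the 2-fold line and no ratio past that line changed sign. The 2 values that changed sign were both of Acsl1 in Ngn3-TOMATO against Ngn3-negative (0.08, and -0.16 with libraries scaled to equal totals or -0.12 to equal totals without Gip). Crossings touched Lpl in Ngn3-TOMATO against Ngn3-negative (0.46 with a pseudocount of 5), Slc27a1 (0.87 with a pseudocount of 5) and Acsl1 (-1.18 with equal totals) in GIP-GFP against Ngn3-negative, and Acsl1, Acsl4 and Slc27a2 in GIP-GFP against Ngn3-TOMATO. The count of genes at least 2-fold lower in GIP-GFP than in Ngn3-TOMATO, which was 1, was 0 with a pseudocount of 5, with the most abundant transcript alone and with equal totals without Gip, and 2 with the median of ratios. The median over the 10 genes was -0.26 with equal totals and -0.22 with equal totals without Gip in Ngn3-TOMATO against Ngn3-negative, -1 with equal totals in GIP-GFP against Ngn3-negative, and 0.64 with equal totals without Gip in GIP-GFP against Ngn3-TOMATO. Equal totals moved the median of all genes by -0.23 and -0.21 in the comparisons with Ngn3-negative (Ngn3-TOMATO first) and the share of higher calls from 65.9% to 53.4% and from 60.5% to 51.1%. Equal totals without Gip moved that median by -0.20, 0.16 and 0.35 in the order of the comparisons, and the share of higher calls to 55.3%, 67.8% and, from 48.0%, 68.9%. With a pseudocount of 5, the genes past 2-fold numbered 1497, 1787 and 601 on the higher side and 902, 1288 and 673 on the lower side. Equal totals without Gip and the omission of transcripts with status FAIL or LOWDATA were chosen after seeing the data. No paired analysis was possible because each group had 1 library. Depth limits Lpl in Ngn3-negative and the split between transcripts that share most of their bases.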
